A study of Mus musculus with 10 samples.

Results

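Cholesterol-loaded mouse aortic smooth muscle cells were compared with unloaded cells of the same kind, gene by gene, on 4 arrays chosen by their labels from a series of 10 array columns. Both groups were primary cells of the thoracic aorta, taken from C57BL/6 mice 8 weeks of age, kept for at most a few passages in medium with 10% fetal bovine serum and harvested while subconfluent. The baseline group (2 arrays) received no stimulus. The cholesterol group (2 arrays) was exposed for 72 h to 10 µg/mL of a complex of cholesterol with methyl-β-cyclodextrin, a ring-shaped sugar carrier that delivers cholesterol to the plasma membrane. All 16860 genes of the deposited table were compared.

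Several features of the groups limit what the comparison can separate. Neither a group with the empty carrier nor an unstimulated group kept for the same 72 h was analysed here, so cholesterol, carrier and culture time cannot be told apart. The labels number the arrays within a group without saying whether they are separate cultures, isolates or mice, and they give no sex; the p-values thus rest on array-to-array spread alone, and that spread may be technical. Origin of the cells, including the sex of the mice, and loading cannot be told apart either, for any of the genes compared.

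Smooth muscle cells of the arterial wall normally contract and divide little, but in culture they proliferate and lose part of their contractile program. Loading with free cholesterol raises membrane sterol; cells respond through sterol sensors in the endoplasmic reticulum that lower cholesterol synthesis and uptake, through oxysterol-activated nuclear receptors that raise cholesterol export, and through esterification of the excess into lipid droplets. In atherosclerotic plaques, lipid-filled smooth muscle cells are known to carry features of macrophages, and the series asks how such features arise on loading. The genes here carry Ensembl identifiers only, and the reference tables used here matched 0 of the 16860 to a symbol. Sterol, macrophage, contractile and inflammatory genes were therefore not described by name, and the cell type of the label was not checked against its markers. Function was read only through 3 lists of cell cycle phase markers keyed by the same identifiers. Membership in these lists rests on marker pairs for a phase and not on the role of a gene.

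Values are log2 RMA values (Robust Multichip Average, a background-corrected and normalized summary of the probes of a gene), on which a change of 1 is a doubling of signal. The 4 arrays had almost the same distribution, with medians from 6.97 to 7.0. Across genes, replicates correlated by 0.9977 at baseline and 0.997 after cholesterol, while arrays of different groups correlated by 0.9689 to 0.974. The difference between replicates had an SD of 0.166 at baseline and 0.186 after cholesterol, and reached 1 for 3 and 17 genes.

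Cholesterol loading went with a broad change in expression. A gene was called when its Benjamini-Hochberg adjusted p in limma, a linear model that shares information on spread between genes, was under 0.05. By that rule 29.2% of the 16860 genes changed: 2214 rose (13.1%) and 2705 fell (16.0%). The total of 4919 dropped to 2671 without baseline replicate 1 and to 2744 without baseline replicate 2, each of which leaves a single baseline array. The typical called gene moved little, with a median of 0.59 for rises and -0.55 for falls. Over all genes the median change was -0.024, with quartiles of -0.20 and 0.14, and the median standard error was 0.094. On both cholesterol arrays 28.1% of genes lay above both baseline arrays and 35.3% lay below both, so a lack of overlap is by itself common here and was not used as a call.

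Small changes were more often falls, while large changes were more often rises. At least 1 on the log2 scale was gained by 508 called genes (3.01%) and lost by 454 (2.69%). At 2 or more there were 135 rises and 95 falls, at 3 or more 64 rises and 13 falls, and at 5 or more 16 rises and 2 falls. Rises thus made up 52.8% of called changes of at least 1 and 83.1% of those of at least 3. The counts for changes of at least 1 stayed between 495 and 541 rises and between 420 and 510 falls when any of the 4 arrays was left out. The 13 falls of at least 3 became 21 without cholesterol replicate 2, when the 64 rises became 67.

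**Figure D1:**
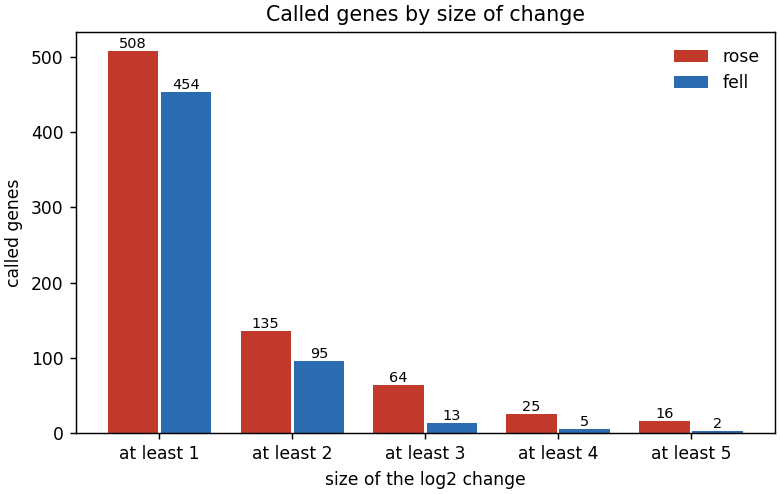
Number of called genes (vertical axis) by the smallest size of the log2 change they reach (horizontal axis), separately for rises and falls. The counts are similar at 1 or more, 508 against 454, and differ most in proportion among the largest changes, 16 against 2 at 5 or more.

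Calls depended on how bright a gene was. Genes were split into 4 equal groups of 4215 by their mean over all 4 arrays; brightness here is probe signal and not a number of transcripts. In the dimmest group, with means up to 5.03, 6.10% of genes were called, against 25.6%, 40.6% and 44.4% in the following groups. Rises were 42.8%, 52.0%, 47.1% and 39.4% of the calls from the dimmest to the brightest group, and in the brightest group 737 genes rose and 1134 fell. Without baseline replicate 1 the called genes were 102, 622, 953 and 994 in these groups, against 257, 1078, 1713 and 1871 with it, and without baseline replicate 2 they were 114, 639, 974 and 1017. Changes of at least 1 were spread over the 3 brighter groups, with 140, 180 and 172 rises and 121, 183 and 143 falls, and were rare in the dimmest, with 16 and 7.

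**Figure D2:**
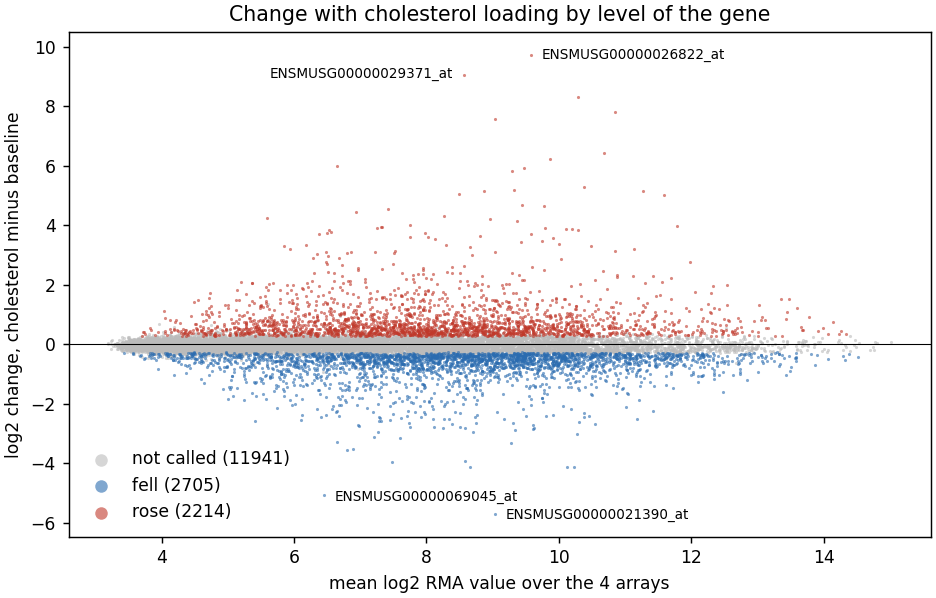
Log2 change with cholesterol (vertical axis) against the mean log2 RMA value over the 4 arrays (horizontal axis), 1 point per gene, coloured by call. Rises reach 9.71 and falls -5.69, and called genes are scarce below a mean of 5.03.

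Large rises and large falls differed in where they started, a difference that picking genes by direction of change favours by itself. Of the 508 genes that rose by at least 1, 254 already lay above the median of the array on both baseline arrays, and 422 (83.1%) did so on both cholesterol arrays. The 454 genes that fell by at least 1 ran the other way, with 374 (82.4%) above the median on both baseline arrays and 234 (51.5%) on both cholesterol arrays. In the lowest quartile of both baseline arrays lay 56 of the risers, and 4001 of all 16860 genes. In the lowest quartile of both cholesterol arrays ended 30 of the fallers, and 4020 of all genes lay there. These positions describe genes picked by their change and carry no test. Sorting by direction puts risers lower at baseline than after loading and fallers higher, so the mirrored shares are largely built in.

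Crossing from dim to bright happened in 14 genes, from the lowest quartile of both baseline arrays to above the median on both cholesterol arrays. All 14 were called, and they rose by 2.91 to 9.71 with a median of 3.74. A crossing of this kind asks for a large change without overlap, so being called was all but fixed in advance. In the reverse direction 1 gene crossed, ENSMUSG00000069045_at. As given with its values, the sex of the source mice and loading cannot be told apart for that gene, nor for the other genes compared.

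The strongest rise was that of ENSMUSG00000026822_at, whose function is not annotated in the tables used here. It read 4.93 and 4.52 on the baseline arrays and 14.51 and 14.37 on the cholesterol arrays. The groups were thus separated by at least 9.44, and both cholesterol values came near the highest value of any gene on those arrays, 15.07 and 15.05. The change was 9.71 ± 0.14 (SE; limma adjusted p = 8.63e-07). The table used here holds no detection calls, so whether the dim values of the genes named were above background was not tested, and no fold is given from them.

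The second largest rise was that of ENSMUSG00000029371_at. Its values were 4.08 and 3.98 at baseline and 13.11 and 13.09 after cholesterol. Replicates lay close together in both groups, and the nearest arrays of different groups were 9.0 apart. The change was 9.07 ± 0.09 (SE; limma adjusted p = 1.48e-07). Of the genes called, the next largest rise was 8.31.

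The strongest fall was that of ENSMUSG00000021390_at, a gene with bright signal in unloaded cells. It read 11.97 and 11.78 at baseline and 6.22 and 6.14 after cholesterol. After loading it lay below the array median but above the lowest quartile. The change was -5.69 ± 0.10 (SE; limma adjusted p = 1.26e-06).

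ENSMUSG00000069045_at was lower in the cholesterol group, near the floor of the arrays. Its values were 9.02 and 8.95 at baseline and 3.76 and 4.07 after cholesterol, where the dimmest genes of the arrays read 3.16 and 3.08. The change was -5.07 ± 0.12 (SE; limma adjusted p = 3.45e-06), and the next largest fall among called genes was -4.14. The tables used here do not place this gene on a chromosome and the labels give no sex, so whether it is sex-linked was not tested. A different sex of the source mice and cholesterol loading cannot be told apart, for this gene or for any other gene compared. These 4 genes kept their call without any 1 of the arrays, with adjusted p from 2.72e-06 to 0.00055. In the one-way test per gene that the design text names, the change of ENSMUSG00000029371_at passed (adjusted p = 0.0314), while ENSMUSG00000026822_at, ENSMUSG00000021390_at and ENSMUSG00000069045_at had an adjusted p of 0.0604, 0.060 and 0.0651.

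**Figure D3:**
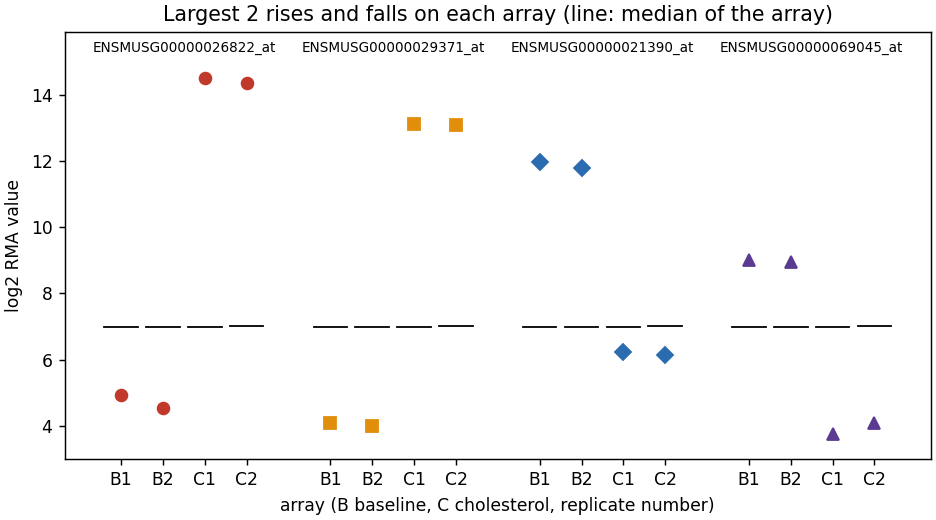
Log2 RMA value (vertical axis) of the 2 genes with the largest rise and the 2 with the largest fall on each baseline (B1, B2) and cholesterol (C1, C2) array, with a line at the median of each array. Replicate arrays nearly coincide, and the nearest arrays of different groups are at least 4.88 apart in each gene.

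The response was somewhat larger on one cholesterol array than on the other. Among the 508 genes that rose by at least 1, the median rise over the baseline mean was 1.55 on cholesterol replicate 1 and 1.45 on replicate 2, and 325 (64.0%) were higher on replicate 1. Among the 454 that fell, the medians were -1.48 and -1.35, and 332 (73.1%) were lower on replicate 1.

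Of the measured genes on a list that marks G2 and mitosis, most fell in loaded cells. A dividing cell passes from G1, when it grows, through S, when it copies its DNA, to G2 and mitosis (G2M), when it builds the spindle and separates the chromosomes, and many of the genes needed for a phase are transcribed just before or during it. Of 95 genes on the G2M list 91 were measured. Of these, 59 fell (64.8%, against 16.0% of all genes), 7 rose (7.69%, against 13.1%) and 25 did not pass the test. Calls were more frequent among brighter genes, and of all genes with means from 7 to 8.95, the range that holds the list's median level of 7.67, 21.5% fell and 19.1% rose. The list as a whole was not tested. Without single arrays 49 to 58 fell; the rises became 4 when baseline replicate 1 was left out and 3 when it was baseline replicate 2. In bulk RNA, fewer cells in a phase and less RNA per cell cannot be told apart.

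The G2M list also held many of the larger falls. The genes of this list that fell by at least 1 numbered 38, which is 41.8% of the list, where 2.69% of all genes did, and 8.37% of all 454 such falls. By at least 2 fell 19 members, where 0.563% of all genes did, and by at least 3 fell 1, where 0.0771% did. The median of the 59 called falls was -1.37. Of the 91 members 1 rose by at least 1, against 3.01% of all genes. The changes of the list ran from -3.12 to 1.05 with a median of -0.64 and quartiles of -1.65 and -0.10, beside a median of -0.02 over all genes.

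Values on single arrays showed the same separation. The median of the G2M members was 8.00 and 8.03 on the baseline arrays and 7.0 and 7.15 on the cholesterol arrays. Both cholesterol arrays lay below both baseline arrays for 70 of the 91 members (76.9%, against 35.3% of all genes) and above them for 12 (13.2%, against 28.1%). Against the baseline mean, the median member changed by -0.63 on cholesterol replicate 1 and by -0.65 on replicate 2, so neither array carried the shift alone. Members in the top quartile of both arrays numbered 27 at baseline and 16 after cholesterol. Of all 16860 genes, 4123 and 4079 lay there.

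Falls were called among both the dimmer and the brighter members of the G2M list. Among the 45 dimmer members, with means over the 4 arrays from 3.93 to 7.56, 35 fell (77.8%) and 1 rose (2.22%), with a median change of -0.99. Of the 8569 genes of the table in that range, 10.3% fell and 10.1% rose. Among the 46 brighter ones, from 7.67 to 14.32, 24 fell (52.2%) and 6 rose (13.0%), with a median of -0.39, and of the 7055 genes in that range 24.9% fell and 18.3% rose. Falls of at least 1 numbered 22 (48.9%, against 2.12% of all genes in the range) and 16 (34.8%, against 3.77%). The difference between the dimmer and brighter members was not tested, and the split itself favours it. The means include the cholesterol arrays, so a fall by itself moves a member toward the dimmer side.

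**Figure D4:**
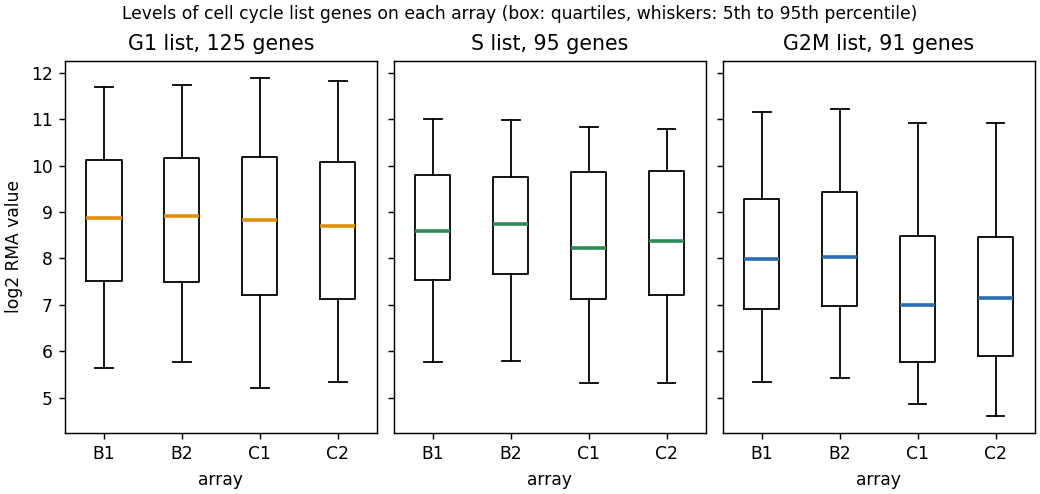
Log2 RMA values (vertical axis) of the measured members of the G1, S and G2M lists on each baseline (B1, B2) and cholesterol (C1, C2) array, with boxes for quartiles and whiskers from the 5th to the 95th percentile. The medians of the G2M list are 8.00 and 8.03 at baseline and 7.0 and 7.15 after cholesterol.

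The S phase list moved less. Its members were picked by marker pairs for S phase, not by a role in DNA replication. Of 95 measured members, 33 fell (34.7%, against 16.0% of all genes), 11 rose (11.6%, against 13.1%) and 51 were not called. Falls of at least 1 numbered 11 (11.6%, against 2.69%), and 0 members rose by as much. Of all genes with means from 7 to 8.95, the range of the list's median level of 8.43, 21.5% fell. Of the members, 39 lay in the top quartile of both baseline arrays, where 4123 of all 16860 genes lay. Among all genes with means from 8.95 to 15.02, 26.9% fell. The list median changed by -0.14, with quartiles of -0.51 and 0.07 and a lowest value of -2.45. Its array medians were 8.59 and 8.74 at baseline and 8.23 and 8.37 after cholesterol, and 52 members (54.7%, against 35.3%) lay lower on both cholesterol arrays. Without single arrays 23 to 30 members fell.

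The G1 list had more falls than rises. Of 125 measured members 37 fell (29.6%, against 16.0% of all genes), 20 rose (16.0%, against 13.1%) and 68 were not called. The share that rose was thus near that of all genes, and also near the 19.1% of genes with means from 7 to 8.95, the range of the list's median level of 8.75, where 21.5% fell. Of the members, 57 lay in the top quartile of both baseline arrays, where 4123 of all 16860 genes lay. Of all genes with means from 8.95 to 15.02, 26.9% fell and 17.5% rose, near the shares of the list. Falls of at least 1 numbered 13 (10.4%, against 2.69% of all genes) and rises of at least 1 numbered 5, beside 3.01% of all genes, and the changes ran from -2.76 to 2.32 with a median of -0.08. Its array medians were 8.87 and 8.90 at baseline and 8.82 and 8.71 after cholesterol. Leaving out baseline replicate 1 gave 26 falls and 11 rises, and leaving out baseline replicate 2 gave 21 and 11. No test between the 3 lists was made.

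**Figure D5:**
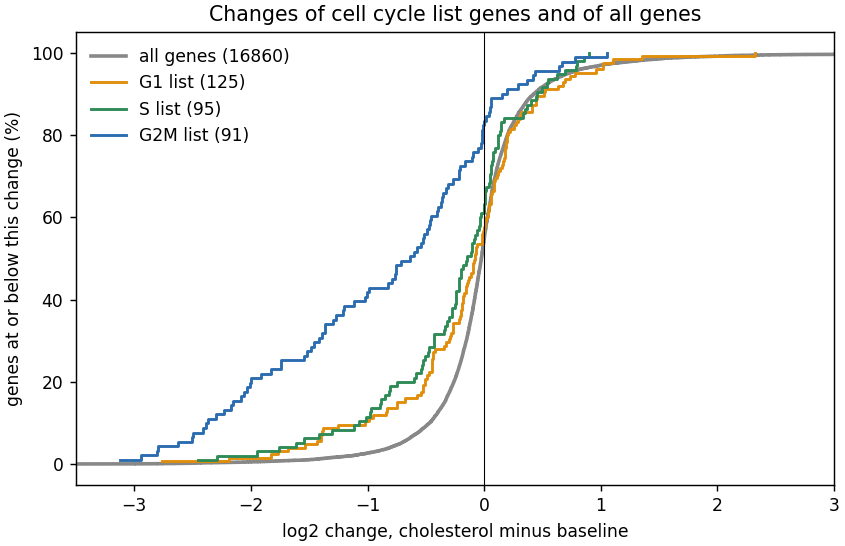
Percentage of genes (vertical axis) whose log2 change with cholesterol lies at or below the value on the horizontal axis, for the G1, S and G2M lists and for all 16860 genes; the axis leaves out the largest changes of all genes. The G2M curve lies to the left, with a median of -0.64 against -0.14 for S, -0.08 for G1 and -0.02 for all genes.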

How the data were processed

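RNA was hybridised to Affymetrix Mouse Genome 430 2.0 arrays. Per the labels' design text, background adjustment, normalization and summary per Ensembl gene (release 59, University of Michigan CustomCDF probe mapping) were done by the authors with RMA, and the deposited values are log2. RMA gives the arrays one distribution, so a change in total RNA per cell would not show, and it compresses changes of dim genes. The normalization of the baseline and cholesterol arrays alone was used (analysis I), and the one that also held the HDL arrays (analysis II) was an alternative. No source used here gives a software version. The number of arrays limits the precision.

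All genes were fitted unfiltered with limma 3.58.1 in R 4.3.3 (lmFit, eBayes, two-sided; 2 residual and 4.52 prior degrees of freedom), which was first tested on simulated data. The rule for named genes asked for 20 in each direction with a symbol, which none had, so the 2 largest rises and falls among called genes whose groups do not overlap are named by identifier. The 31 functional lists and 9 marker lists written by symbol matched no identifier and were not used. The cell cycle lists come from mouse marker pairs keyed by Ensembl identifier that ship with an R package: a gene had to win at least 10 of its pairs and 90% of them, in 1 phase only. Members and lists were chosen with earlier results of these data known. Alternatives were the one-way test, analysis II, a filter on dim genes, median centring, another prior, a replicate block, single arrays left out, a minimum change and wider lists.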

Additional observations from a re-analysis of the deposited data

How the results depend on the processing

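The call of 4919 genes (2214 rises, 2705 falls) was 962 (508 and 454) with a minimum change of 1, which is stricter by construction. In the one-way test per gene, which has 2 residual degrees of freedom, it was 38 (20 and 18), of which 37 were among the limma calls in the same direction, with 4844 genes at an unadjusted p under 0.05 (6625 in limma). Leaving out single arrays, with the spread of the remaining lone array taken from the other group, it ranged from 2671 to 4238, with 1235 to 1976 rises and 1436 to 2262 falls. With the dimmer 8430 genes left out, which removes members, the 59 falls of the G2M list became 34. In that fit 2502 of the 8430 genes tested fell, a larger share than in the main fit. The 59 falls became 38 with the minimum change and 1 in the one-way test (55 at an unadjusted p under 0.05). The 33 falls of the S list became 11 and, in the one-way test, 0 (34 at an unadjusted p under 0.05, 41 in limma). The 37 falls of the G1 list became 13 and 0 (34 at an unadjusted p under 0.05), and its 20 rises became 5 and 1. With all 3 groups of analysis II in one fit, 3960 genes were called. With its 4 baseline and cholesterol columns alone it was 4915, of which 4645 were shared with the main calls in direction. Analysis II is another normalization, as described above, so this overlap is not a replication. Lists from at least 5 pairs, chosen after seeing the data, gave 57 G2M falls and a median change of -0.6, against -0.64 in the main list. The wider list holds other members, so its count is not comparable with the 59. The 4 named genes kept direction and call in 44 of 47 values under the alternatives, and the exceptions were 3 in the one-way test. The 47 include the minimum change, which repeats the main fit and could not alter these genes. With the replicate number as a block (replicate block) 4640 genes were called. The main fit used no block because the replicate numbers are not stated to pair cultures. The same-numbered arrays' deviations correlated by 0.0193 across genes. Falls outnumbered rises among all called genes, but not with the minimum change or in the one-way test, as the counts above show. No list's median change and no named gene changed sign.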
